A study of Mus musculus with 4 samples.

Results

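The Rhox genes (reproductive homeobox genes on the X chromosome) were examined for trimethylation of histone H3 at lysine 27 (H3K27me3) in mouse embryonic fibroblasts with normal SmcHD1 and in fibroblasts deficient for it. The members were 10 genes chosen by symbol, namely Rhox1, Rhox2g, Rhox2h, Rhox5, Rhox6, Rhox8, Rhox9, Rhox10, Rhox11 and Rhox12, and 9 of them had a row among the 22691 genes of the deposited table. No row carried the symbol Rhox5, which is not analysed here. A further 21 rows carried other Rhox symbols, so that the table held 30 Rhox rows, all on the X chromosome.

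The fibroblasts came from female fetuses of strain C57BL6/J at embryonic stage E13.5. One group had the genotype Smchd1 +/+ (WT) and the other Smchd1 MD1/MD1, called smchd1MD1 in the table and MD1 here, which the series' design describes as deficient for SmcHD1. Each genotype had 1 ChIP library, made with the mouse monoclonal antibody CMA323, and 1 input library without antibody, so there was no replicate error, no test and no p-value. Whether cells of several fetuses were pooled is not given in the sources used here. Values were log2 enrichments per gene, and the difference was MD1 minus WT, so that 1 is a 2-fold higher and -1 a 2-fold lower enrichment. Female cells carry an active and an inactive X, and each value averages both.

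Rhox genes encode homeodomain transcription factors that are known for expression in testis, epididymis, ovary and placenta and for silence in most somatic cells, where DNA methylation holds them off. They lie in 1 block on the X, in subclusters called alpha, beta and gamma, and parts of the alpha subcluster have been copied several times. H3K27me3 is laid down by Polycomb repressive complex 2 and coats the inactive X, and SmcHD1 is a noncanonical SMC-family protein that is concentrated there.

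The Rhox block carried more H3K27me3 in MD1 than in WT at every gene that had both values. The 9 members with values stood between 0.61 and 1.76 in WT and between 2.14 and 2.90 in MD1. The lowest MD1 value, at Rhox11, lay 0.38 above the highest WT value, at Rhox9. All 9 differences were positive, as were 69.1% of those of X genes. The median difference was 1.26 (2.40-fold), against 0.55 over all X genes and -0.27 over autosomal genes. Of the 9 members, 6 were at least 2-fold higher in MD1 and 0 at least 2-fold lower, where 22.1% of all 770 X genes with values were higher and 18.3% lower by the same limits. Among autosomal genes 1.61% were higher and 20.4% lower. At a limit of 3-fold, 2 members were higher, Rhox2g and Rhox2h, against 5.06% of X genes.

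**Figure D1:**
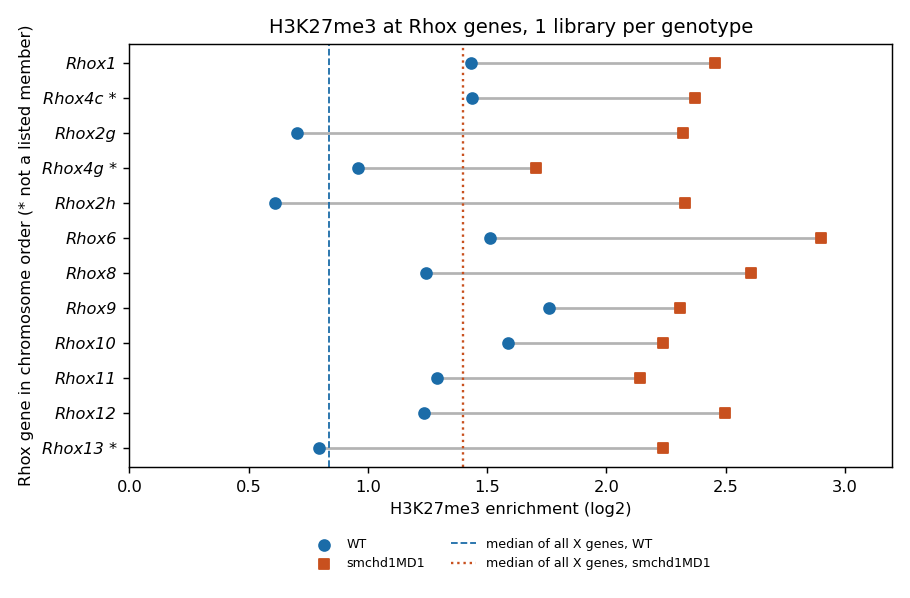
H3K27me3 enrichment (log2, x axis) at the 12 Rhox genes with both values in chromosome order (y axis), with 1 library per genotype as circles (WT) and squares (MD1), and the medians of all X genes as vertical lines (0.84 in WT, 1.40 in MD1). Every MD1 square lies to the right of its WT circle, and 9 of the 12 WT circles lie above the WT median of the X.

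Many Rhox rows had no value, and most of these belonged to the copied genes Rhox2, Rhox3 and Rhox4. Of the 30 rows, 12 had both values, 15 had none, 2 had a value in WT alone and 1 in MD1 alone. Thus 60.0% of Rhox rows lacked a pair of values, against 17.8% of the other X genes and 8.75% of autosomal genes. Both values were present at 2 of 8 Rhox2 copies, 0 of 6 Rhox3 copies, 2 of 7 Rhox4 copies and not at Rhox7a, whereas all 8 Rhox genes outside these groups had both. The rows without any value were Rhox2a, Rhox2b, Rhox2c, Rhox2e, Rhox3a, Rhox3c, Rhox3e, Rhox3f, Rhox3h, Rhox4a, Rhox4b, Rhox4d, Rhox4e, Rhox4f and Rhox7a.

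RefSeq promoters (build GRCm38.p6) were matched by symbol to 25 Rhox genes, 7 of them members; Rhox6, Rhox8 and Rhox9 had no entry. Symbols of copies can change between builds; the length in the table equalled the RefSeq length for 20 of the 30 Rhox rows, among them Rhox2g, Rhox2h, Rhox4c and Rhox4g. The 250 bases before the start of each gene were aligned with those of every other Rhox gene, and identity was the number of identical aligned bases as a percent of 250. The 13 matched genes without any value shared between 86.8% and 100% of these bases with their closest Rhox relative, with a median of 99.6%. Among them, Rhox3e lay within Rhox3a in the table but between Rhox2e and Rhox4e in RefSeq, so its promoter may be that of another copy. Of the matched genes with a value in 1 genotype, Rhox2d shared 96.0% with its closest relative and Rhox3g 47.6%. Among the 9 matched genes with both values, Rhox4c (97.2%), Rhox2g (96.0%), Rhox2h (95.6%) and Rhox4g (95.6%) also had a close relative. Rhox10 and Rhox11 shared 56.8% with each other, Rhox12 and Rhox13 11.2%, and Rhox1 no more than 8.80% with any. How reads that map to several copies were treated is not given in the sources used here.

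The upstream sequences of the near-identical pair Rhox2g and Rhox2h are shown with those of Rhox1 and Rhox12, which have no close relative, and of Zbtb33, the first listed gene beyond the block, which went the other way. Each runs 5′ to 3′ on the gene's own strand, and capitals mark CG dinucleotides (CpG), the sites of DNA methylation.
Rhox1, minus strand, chrX:37222259-37222508: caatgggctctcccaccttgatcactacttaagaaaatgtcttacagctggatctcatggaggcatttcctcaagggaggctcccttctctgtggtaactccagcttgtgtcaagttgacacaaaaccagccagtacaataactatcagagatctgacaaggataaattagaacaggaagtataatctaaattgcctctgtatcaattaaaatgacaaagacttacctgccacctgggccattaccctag
Rhox2g, minus strand, chrX:37643471-37643720: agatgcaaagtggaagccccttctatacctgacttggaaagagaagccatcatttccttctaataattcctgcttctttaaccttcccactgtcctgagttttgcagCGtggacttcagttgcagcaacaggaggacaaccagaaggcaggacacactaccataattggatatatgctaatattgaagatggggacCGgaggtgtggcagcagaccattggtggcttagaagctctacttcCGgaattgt
Rhox2h, minus strand, chrX:37673278-37673527: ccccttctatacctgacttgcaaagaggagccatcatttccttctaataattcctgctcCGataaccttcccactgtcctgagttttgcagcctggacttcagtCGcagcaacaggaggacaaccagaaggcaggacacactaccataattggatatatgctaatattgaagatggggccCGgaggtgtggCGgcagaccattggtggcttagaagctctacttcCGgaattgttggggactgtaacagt
Rhox12, minus strand, chrX:38110908-38111157: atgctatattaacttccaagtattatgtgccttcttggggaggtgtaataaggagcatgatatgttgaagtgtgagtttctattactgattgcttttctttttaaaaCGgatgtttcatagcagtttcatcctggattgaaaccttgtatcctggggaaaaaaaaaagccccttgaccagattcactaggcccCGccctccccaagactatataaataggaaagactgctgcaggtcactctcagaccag
Zbtb33, plus strand, chrX:38189543-38189792: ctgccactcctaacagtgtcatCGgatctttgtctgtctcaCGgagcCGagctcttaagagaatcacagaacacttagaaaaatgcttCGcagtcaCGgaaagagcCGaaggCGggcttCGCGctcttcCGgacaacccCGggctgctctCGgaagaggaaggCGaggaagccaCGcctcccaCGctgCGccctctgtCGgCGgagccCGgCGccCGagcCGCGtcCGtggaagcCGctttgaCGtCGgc

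Rhox2g and Rhox2h were identical at 90.0% of positions and had 3 and 5 CpG. Rhox1 had 0 and Rhox12 had 2, whereas Zbtb33 had 27. No Rhox promoter had more than 8 CpG, and the median of the 25 was 4. Of the 27025 RefSeq promoters of the same length, counting the first listed start of each gene, 91.7% held at least 1 CpG on either strand, a CpG being the same on both, 40.7% held more than 8, and the median was 6.

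In the alpha subcluster the members were Rhox1, Rhox2g and Rhox2h, and the 2 copies had the largest differences of all members. Positions here and below are those of the table, for mm9, and cover the gene as annotated there, with its exons and introns. Whether the whole interval was counted is not given. Rhox2h (X, 35083504 to 35087784) stood at 0.61 in WT and at 2.33 in MD1, a difference of 1.72 or 3.29-fold. Rhox2g (X, 35053619 to 35057977) went from 0.70 to 2.32, a difference of 1.62 or 3.07-fold. Both started below the WT median of the X and ended near its top, at percentiles 92.5 and 92.1 of X genes in MD1. Rhox1 (X, 34753800 to 34762253), at the first end of the block, went from 1.43 to 2.46, a difference of 1.02 or 2.03-fold.

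Since 1 library has no error of its own, the spread among autosomal genes served as a yardstick. For each gene, 500 autosomal genes of its length quartile with the closest mean of both values were taken. The standard deviation (SD) of their differences was the yardstick, and the gene's own difference minus their median is called level-matched. This SD was 0.53 for Rhox2h, 0.52 for Rhox2g and 0.30 for Rhox1, and their level-matched differences were 1.61, 1.5 and 0.91. All 3 thus lay more than 1 such SD above like autosomal genes, and Rhox1 was no longer past 2-fold by this measure. In all, 5 of the 9 members were at least 2-fold higher and 0 lower when level-matched, against 19.1% and 17.4% of X genes. Nearly every deposited value (99.98% in WT, 99.95% in MD1) came from dividing 2 whole numbers and taking the log2, shifted by 1 constant per genotype, which is the form of a ChIP count over an input count. In lowest terms the Rhox2h ratios were 37 to 25 in WT and 77 to 15 in MD1, those of Rhox2g 30 to 19 and 46 to 9, and those of Rhox1 191 to 73 and 443 to 79. Lowest terms do not give the read counts, which remain unknown, and so does the depth of the libraries.

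Other alpha rows with both values were Rhox4c and Rhox4g. Rhox4c (X, 34894844 to 34899631) went from 1.44 to 2.37 and Rhox4g (X, 35061008 to 35065834) from 0.96 to 1.71, differences of 0.94 and 0.74 that were within 2-fold. The MD1 value of Rhox4g was the lowest of the 12 Rhox genes and rested on a ratio of 10 to 3 in lowest terms. Values in a single genotype were 0.94 at Rhox2f and 1.04 at Rhox3g in WT and 2.14 at Rhox2d in MD1. Their ratios in lowest terms were 13 to 7, 2 to 1 and 9 to 2. These single values lay on the same sides as the paired ones, with those of WT near 1 and that of MD1 above 2.

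The beta subcluster holds Rhox5, the founding gene known as Pem, which is known from Sertoli cells and had no row, and Rhox6, Rhox8 and Rhox9. Rhox6 and Rhox9 are also known as Psx1 and Psx2, from their expression in placenta, and Rhox8 is known from the somatic cells of the gonads. Rhox6 (X, 35180232 to 35183034) went from 1.51 to 2.90, a difference of 1.39 or 2.62-fold, and had the highest MD1 value of the members, at percentile 98.8 of X genes. Rhox8 (X, 35227953 to 35232121) went from 1.24 to 2.61, a difference of 1.37 or 2.58-fold. The row of Rhox8 was 4169 bp long, whereas its RefSeq length was 15987 bp. Rhox9 (X, 35252274 to 35254947) went from 1.76 to 2.31, a difference of 0.55 or 1.46-fold. Rhox9 had the highest WT value and the smallest difference of the members, which was close to the median of 0.55 over all X genes.

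Against like autosomal genes the beta members split in the same way. The level-matched differences of Rhox6 and Rhox8 were 1.3 and 1.24, with SDs of 0.53 and 0.52. That of Rhox9 was 0.44 and within its SD of 0.52. In lowest terms the WT ratio of Rhox9 was 23 to 7 and its MD1 ratio 81 to 16. The row of Rhox7a, between Rhox6 and Rhox8, had no value.

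The gamma subcluster had values at Rhox10, Rhox11 and Rhox12 and at Rhox13, which was not among the members. Rhox10, known for its role in the establishment of spermatogonial stem cells (X, 35419652 to 35424865), went from 1.59 to 2.24, a difference of 0.65 or 1.57-fold. Rhox11 (X, 35429775 to 35438316) went from 1.29 to 2.14, a difference of 0.85 or 1.81-fold. Rhox12 (X, 35457239 to 35464084) went from 1.24 to 2.50, a difference of 1.26 or 2.40-fold. Rhox13, a gene of male germ cells at the last end of the block (X, 35474017 to 35483143), went from 0.80 to 2.24, a difference of 1.44 or 2.72-fold. Over these 4 genes the SD was 0.33 in WT and 0.15 in MD1. The larger WT spread rested on Rhox13: over the 3 members it was 0.19 in WT and 0.18 in MD1.

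The level-matched differences were 0.53 at Rhox10, 0.75 at Rhox11, 1.15 at Rhox12 and 1.34 at Rhox13. The matched SDs were 0.52, 0.31, 0.53 and 0.32. Rhox10 thus stood about 1 SD above like autosomal genes and the others more than that. Over all X genes the median level-matched difference was 0.45, and Rhox10 (0.53) and Rhox9 (0.44) lay near it. Rhox1, Rhox10, Rhox11 and Rhox12, whose promoters had no near-identical relative, were the members with ratios whose denominators were at least 20 in both genotypes, and 2 of these 4 were at least 2-fold higher, against 16.5% of 559 other X genes with such denominators.

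The spread among the members was smaller than that among X genes in both genotypes. Their SD over genes was 0.39 in WT and 0.23 in MD1, and over all X genes it was 0.77 in WT and 1.68 in MD1. The smaller spread in MD1 rested on Rhox2g and Rhox2h: without them the SD of the other 7 members was 0.20 in WT and 0.26 in MD1. Over all 12 Rhox genes the range was 1.15 in WT and 1.2 in MD1. In WT the order from the highest was Rhox9, Rhox10, Rhox6, Rhox1, Rhox11, Rhox8, Rhox12, Rhox2g and Rhox2h. The gap between Rhox12 and Rhox2g was 0.54, and the other gaps between neighbours in that order were at most 0.17. In MD1 the order was Rhox6, Rhox8, Rhox12, Rhox1, Rhox2h, Rhox2g, Rhox9, Rhox10 and Rhox11, with gaps of at most 0.29. The matched SDs of the members were 0.30 to 0.53. They are spreads of MD1 minus WT differences and do not measure the error of a step between genes within 1 genotype. Across the 9 members, which share their libraries and lie in 1 block, the WT value and the difference correlated with r = -0.84, or -0.67 without Rhox2g and Rhox2h; the difference contains the WT value with a negative sign, so scatter in WT alone gives a negative r. The r between WT and MD1 values was 0.16, or -0.13 without these 2 genes.

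**Figure D2:**
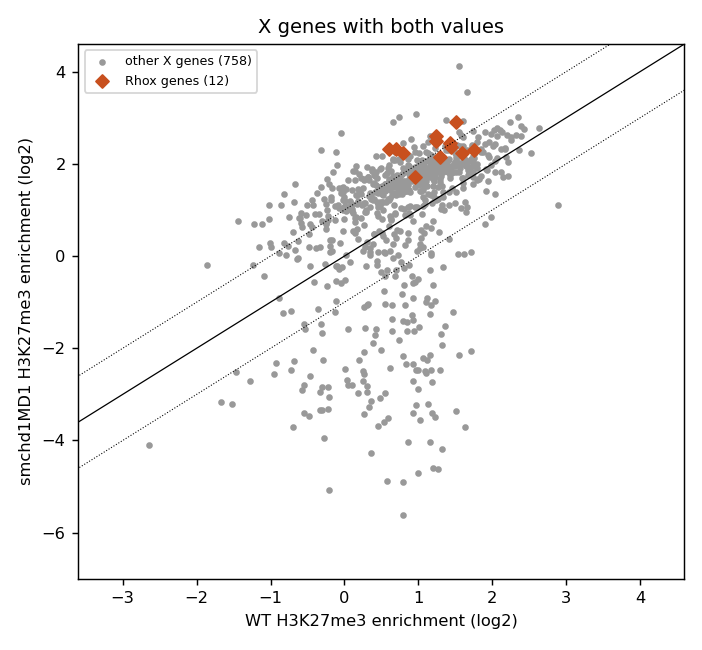
H3K27me3 enrichment (log2) in WT (x axis) and MD1 (y axis) for the 770 X genes with both values, 1 point per gene, with Rhox genes as diamonds. The solid line marks equal values and the dotted lines 2-fold; the 12 Rhox diamonds lie above the solid line, 7 of them at or above the upper dotted line.

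Other X genes of like length, or with a WT value no lower than the lowest member, had a smaller median difference. Of the 163 other X genes within the members' range of length, 2674 to 8542 bp, 28.2% were past 2-fold upwards in MD1 and 23.9% downwards, with a median difference of 0.58. Of the 462 other X genes with a WT value at or above that of Rhox2h, 11.0% were higher and 16.9% lower, with a median of 0.45. These 462 genes had no upper limit in WT and reached 2.88, above the highest member at 1.76, so they were not matched on level. In MD1, 12.1% of the 758 X genes outside the Rhox block had a value at or above that of Rhox11, the lowest member.

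At the resolution of genes, the difference changed sign at both ends of a run that held the block. The Rhox rows spanned 729 kb (X, 34753800 to 35483143). Among genes with both values, a run of 15 with positive differences reached from Gm9 to Rhox13 and held 12 Rhox genes and 3 others. The 18 Rhox rows without both values lay within this span and were passed over, so their direction is unknown. Gm9, 2.76 kb before Rhox1, went from 1.38 to 2.96, a difference of 1.58. The pseudogenes Btg1-ps1 and Btg1-ps2, between Rhox9 and Rhox10, differed by 0.95 and 0.16.

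Just outside the run the difference turned negative on both sides. Rnf113a1, a gene for a RING finger protein that begins the outer side 16.0 kb before Gm9, went from 0.55 to -1.03, a difference of -1.58. In lowest terms its ratios were 17 to 12 in WT and 1 to 2 in MD1, and its matched SD was 0.79. Ndufa1, encoding a subunit of mitochondrial complex I, went from 0.61 to -2.42, a difference of -3.04 or 8.21-fold lower. Its ratio in MD1 was 4 to 21 in lowest terms, and its matched SD was 0.84. Zbtb33, encoding the methyl-CpG-binding protein Kaiso, 59.8 kb beyond Rhox13, went from 0.20 to -2.25, a difference of -2.45 or 5.45-fold lower with a matched SD of 0.51. In WT these 3 genes stood 0.82 to 1.23 below Rhox1, in MD1 3.49 to 4.88 below it.

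Within 1 Mb on each side 29 genes outside the Rhox symbols had values, and they went both ways. Of these, 6 were past 2-fold upwards in MD1 and 13 downwards, against 22.1% and 18.3% of all X genes. The upward share was thus close to that of the X, and the downward share was larger. The median difference was -0.80. Widening the flanks to 2 Mb turned the median to 0.079 over 32 genes, since the 3 added genes were all positive, while 13 genes remained lower. That median lay between the differences of Pgrmc1 (-0.00064) and Btg1-ps2 (0.16). On the side of Rhox1, 8 of 19 genes were lower, among them Nkap (-2.75), the nonsense-mediated decay gene Upf3b (-2.35), the ubiquitin-conjugating enzyme gene Ube2a (-2.71), the adenine nucleotide translocator gene Slc25a5 (-2.84), C330007P06Rik (-2.82) and Nkrf (-1.37). Akap14 (-0.84), a gene for an anchoring protein of protein kinase A, lay among them within the limit. On the side of Rhox13, 5 of 8 genes were lower: Zbtb33, the lysosomal membrane gene Lamp2 (-2.95), the ubiquitin ligase scaffold gene Cul4b (-1.84), Mcts1 (-2.62) and C1galt1c1 (-1.62).

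The flanking genes that were at least 2-fold higher were Gm9, Sowahd (2.58), Gm15008 (2.14), 6030498E09Rik (1.63), Lonrf3 (1.37) and Akap17b (1.01). Gm15008 overlaps Sept6, which differed by 0.93, and Zbtb33 overlaps Tmem255a, which differed by 0.58. Without strand in ChIP data, reads in the shared stretch cannot be assigned to either gene. Atp1b4, the third nearest gene on the side of Rhox13, differed by 0.83. Genes with positive and negative differences thus alternated on both sides, whereas the Rhox block held no negative one among its genes with both values.

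**Figure D3:**
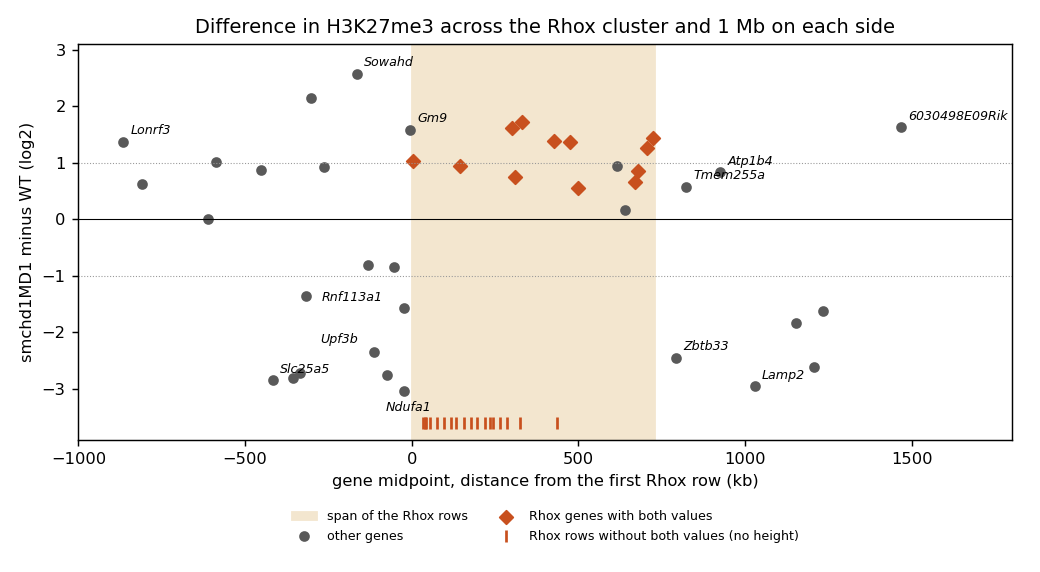
Difference in H3K27me3 (MD1 minus WT, log2, y axis) of each gene by the distance of its midpoint from the first Rhox row in kb (x axis), with Rhox genes as diamonds, other genes as circles and the span of the Rhox rows shaded; ticks near the bottom mark the 18 Rhox rows without both values and have no height. Diamonds lie between 0.55 and 1.72, and the nearest circles outside Gm9 and Rhox13 lie at -1.58 and -2.45.

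The flanking genes that were lower had more CpG before their start than the Rhox genes. Of the 13 lower genes, 12 had a RefSeq promoter, with a median of 14.5 CpG and a range of 2 to 27, and 8 of the 12 had at least 10. Of the 13 genes with a positive difference, 8 had a promoter, with a median of 7.5, and 1 of these 8, Sowahd, had at least 10. Lamp2 with 6 CpG and Mcts1 with 2 were lower all the same, and Pgrmc1 with 18 did not differ (0.31 in both genotypes). The part of CpG content in the differences was not tested.

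**Figure D4:**
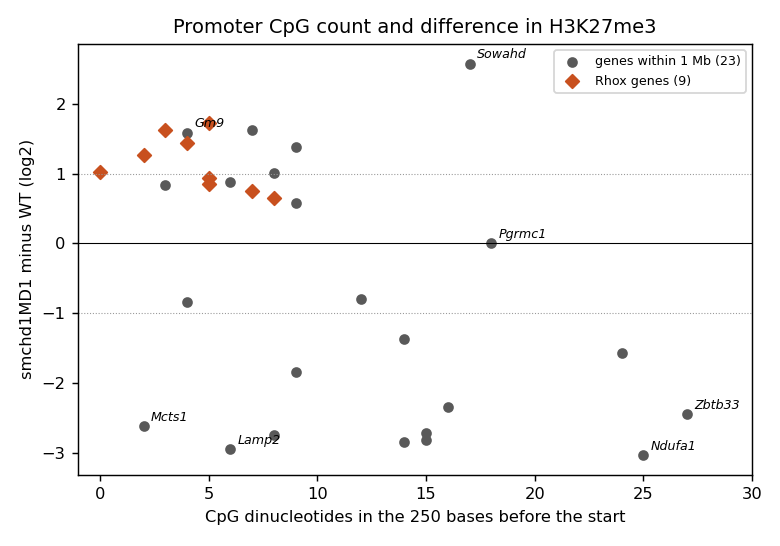
Difference in H3K27me3 (MD1 minus WT, log2, y axis) against the number of CpG in the 250 bases before the start (x axis) for 9 Rhox genes (diamonds) and 23 genes within 1 Mb (circles) that have a RefSeq promoter. The Rhox genes hold 0 to 8 CpG and lie above 0, and most circles with 10 or more CpG lie below -1.

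Other genes that share a property with the Rhox genes were listed beside them. Of 55 rows of other X families of the germline, 28 had both values, and all 28 differences were positive, against 69.1% of X genes, and 16 of the 28 were at least 2-fold higher, against 22.1% of X genes. Their median was 0.52 in WT and 1.60 in MD1, and the median of the differences was 1.07. The 4 largest were those of Ssxb10 (2.24), Magea6 (1.57), Tex13a (1.40) and Spin2c (1.39). Of the 55 rows, 49.1% lacked a pair of values.

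X homeobox genes outside the block had a higher median in WT than the Rhox members and a smaller median difference. Of 6, 4 had values, and all 4 differences were positive, as were 69.1% of those of X genes. Past 2-fold were 0 of the 4, where 22.1% of X genes were higher and 18.3% lower. The median was 1.77 in WT and 2.23 in MD1, and the median difference 0.66. Esx1, a homeobox gene of the placenta, went from 2.35 to 3.02, and Cdx4, a caudal-type homeobox gene, from 2.39 to 2.60. Pou3f4 differed by 0.66 and Hdx, which stood at -0.25 in WT, by 0.95. On autosomes, 8 of 13 homeobox genes of oocytes and early germ cells had values. Of these, 6 differences were positive, against 6150 of 19836 over all autosomal genes. Past 2-fold were 0, where 1.61% of autosomal genes were higher and 20.4% lower, and the median difference was 0.48. The largest were those of Obox5 and Obox6, both 0.88, Nobox (0.55) and Pou5f1 (0.53).

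Genes known to regulate Rhox or other germline genes were also listed. Over 18 genes of DNA methylation and repression the median was -2.30 in WT and -3.25 in MD1, and Dnmt3l, a cofactor of DNA methylation in germ cells, stood highest at 0.87 and 1.29. Of the 18, 9 were at least 2-fold lower, where 20.4% of autosomal genes were, led by Setdb1 (-1.96), Hells (-1.90), Kdm1a (-1.83) and Mga (-1.66), but 0 by the level-matched difference. Dnmt3b, a DNA methyltransferase known to act on the Rhox block, went from -0.61 to -0.91. Among activators of Rhox5, Gata4 went from 2.08 to 2.24, and Ets2 and Elf1 differed by -0.89 and -0.74.

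By median, the mark at marker genes followed the labelled cell type. Over 9 fibroblast genes the median was -2.90 in WT and -3.99 in MD1, low in both as is known for active genes. Over all autosomal genes the medians were -0.78 and -0.90. For 16 markers of germ cells, trophoblast, epithelium, blood and endothelium the median was 0.52 in WT and 0.71 in MD1. Their WT values ran from -1.66 at Sycp3 to 2.70 at Tfap2c. In MD1 the lists overlapped: fibroblast genes ran from -5.08 to -1.21 and the other markers from -2.82 to 2.76. The values do not measure expression and cannot show the MD1 allele; Smchd1 itself went from -2.44 to -3.47, a level-matched difference of 0.03.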

How the data were processed

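H3K27me3 ChIP-seq of WT and MD1 fibroblasts was analysed from 1 deposited table of log2 enrichments per gene, with 1 column per genotype per the file headers. The submitters' processing notes name mm9. The sources used here do not give the aligner, the counting, the treatment of multiply mapping reads or the denominator, and copies that share reads may be missing or share values for that reason. Read depth is unknown, so no counting interval is given. Starts in the table count from 0 and were printed counting from 1.

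Rows on X were selected by symbol, and the MD1 minus WT difference was taken where both values existed. With 1 library per kind and genotype no test was run. Genes at least 2-fold apart were counted over all genes. The level-matched difference and the search for whole-number ratios (numbers up to 20000, relative tolerance 1e-12) were tested on simulated data. Promoters of 250 bases were aligned with match 1, mismatch -1, gap opening -3, gap extension -1 and free end gaps. Python 3.11.15, NumPy 2.4.6, pandas 2.3.3, Biopython 1.88 and matplotlib 3.10.9 were used.

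The text names all members and Rhox rows, the 3 genes with values nearest each end, genes past 2-fold within 1 Mb, up to 4 genes per list, Smchd1 and the 5 X genes nearest in pattern; Dnmt3b, Dnmt3l, Sycp3, Tfap2c, Akap14, Sept6, Pgrmc1 and Btg1-ps1 and Btg1-ps2 were added after their values were seen. A few listed genes were left out and are not reported here. Members and lists were chosen with earlier results of these data known. Alternatives were pseudocounts of 0.01 and 1, centring, level matching, dropping genes below the 25th percentile of mean level, denominators of at least 20, limits of 1.5-fold and 3-fold, means, flanks of 0.5 and 2 Mb, all Rhox rows, and leaving out Rhox2g and Rhox2h.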

Additional observations from a re-analysis of the deposited data

How the results depend on the processing

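All 9 members kept a positive difference under each alternative that retained them, and 0 were at least 2-fold lower. The median over the members ranged from 0.94 over the 4 with denominators of at least 20 to 1.53 when centred on the autosomal median. The number at least 2-fold higher moved from 6 to 2 of those 4 members with denominators of at least 20, and to 2, Rhox2g and Rhox2h, at a limit of 3-fold. It was 4 with a pseudocount of 1, 5 when level-matched and 7 when centred, where 5.54%, 18.6% and 36.7% of the other X genes were higher, and 4 of 7 without Rhox2g and Rhox2h. Over all 12 Rhox genes it was 7, with a median of 1.14.

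The flanking genes depended more on the settings. A pseudocount of 1 on the linear ratio, which damps low values by construction, reduced the 13 lower genes to 1 and the median from -0.80 to -0.30. The median was -1.37 with flanks of 0.5 Mb and 0.079 with flanks of 2 Mb. Leaving out flanking genes that overlap another, an alternative chosen after seeing the data, gave 11 lower genes. The read depth is unknown, which limits all values.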

Other observations

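The promoter CpG count was set beside the difference for the 585 X genes outside the Rhox block that had both values and a RefSeq promoter, after the counts of the flanking genes had been seen. With 0 to 4 CpG in the 250 bases before the start, 3.16% of 190 genes were past 2-fold downwards in MD1 and 30% upwards. With 5 to 9 CpG, 14.4% of 132 were lower and 24.2% higher. With 10 to 19 CpG, 35.4% of 189 were lower and 7.94% higher, and with 20 or more, 36.5% of 74 were lower and 9.46% higher. The median WT value was 0.89, 0.79, 0.82 and 0.67 in these classes and the median MD1 value 1.67, 1.44, 0.39 and 0.10, so the classes lay closer together in WT than in MD1. The classes also differ in the genes they hold, and neighbouring X genes are not independent.

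The 5 X genes whose pair of values lay nearest to the medians of the Rhox members, by straight-line distance on the log2 scale, were Gm41 (0.069), Asb12 (0.090), Gm4937 (0.092), Magea10 (0.12) and Xlr (0.13). They lay 15.6 to 57.2 Mb from the block. Gm41 went from 1.22 to 2.34 and Xlr from 1.26 to 2.45. A likeness over 2 values, 1 per genotype, is a weak one.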
